A study of Caenorhabditis elegans with 2 samples.

Results

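The splicing factor genes of Caenorhabditis elegans described here are the protein-coding genes whose symbol starts with snr-, prp-, rsp-, uaf-, rnp- or hrpa- and a digit, together with sfa-1, sftb-1 and repo-1. The rule found 44 genes among the 19973 protein-coding genes of the nuclear chromosomes in Ensembl release 115, and used no measured value. Chromatin immunoprecipitation followed by sequencing (ChIP-seq) with an antibody against GFP mapped ARID-1, which carries an AT-rich interaction (ARID) domain, in whole worms. The worms were of strain RW12194, whose arid-1 gene on chromosome V had been extended with TY1, EGFP and 3xFLAG by CRISPR. They had been synchronised by bleaching and starvation as L1 larvae and were harvested as L4 larvae at 47 hours. Both samples, replicates 1 and 2 of 1 group, came from different biosamples. With a single group there was no comparison between conditions, and control libraries were not used here. Whole worms mix all tissues, so a peak does not tell in which cells ARID-1 was bound.

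Splicing removes introns from a transcript and joins its exons, and is carried out by the spliceosome, which is built from small nuclear RNAs (snRNAs) and many proteins. The Sm proteins form a ring around most of these snRNAs, the SR proteins bind exons and help the splice sites to be recognised, and the PRP proteins build and drive the catalytic core. In the worm the same machinery also joins a short leader RNA to the front of many messages, so the annotated 5' end of a gene can lie downstream of the place where transcription begins.

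A gene is said here to hold a summit where the highest point of a peak in the authors' conservative list lay within 500 bp of its annotated 5' end. Of the 44 splicing factor genes, 14 (31.8%) held one, beside 1134 of all 19973 protein-coding genes (5.68%). Genes that share a peak are not independent of each other, and the 14 genes rested on 14 distinct peaks because shared peaks and second peaks balanced each other out. The 14 were the Sm genes snr-1, snr-2, snr-3, snr-4 and snr-6, the SR genes rsp-1, rsp-2, rsp-5 and rsp-6, the core genes prp-8 and prp-40, and uaf-1, rnp-6 and hrpa-1. By class, 5 of 7 Sm genes (71.4%), 4 of 8 SR genes (50%) and 2 of 15 spliceosome core genes (13.3%) held a summit. Among the rest it was 1 of 3 genes for recognition of the 3' splice site and branch site, 1 of 9 rnp genes (11.1%) and 1 of 2 hnRNP A genes. No test was made of these shares, since the genes were chosen with earlier results of the same data known. The classes are small, and 1 gene more or less moves each share by many percentage points.

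**Figure D1:**
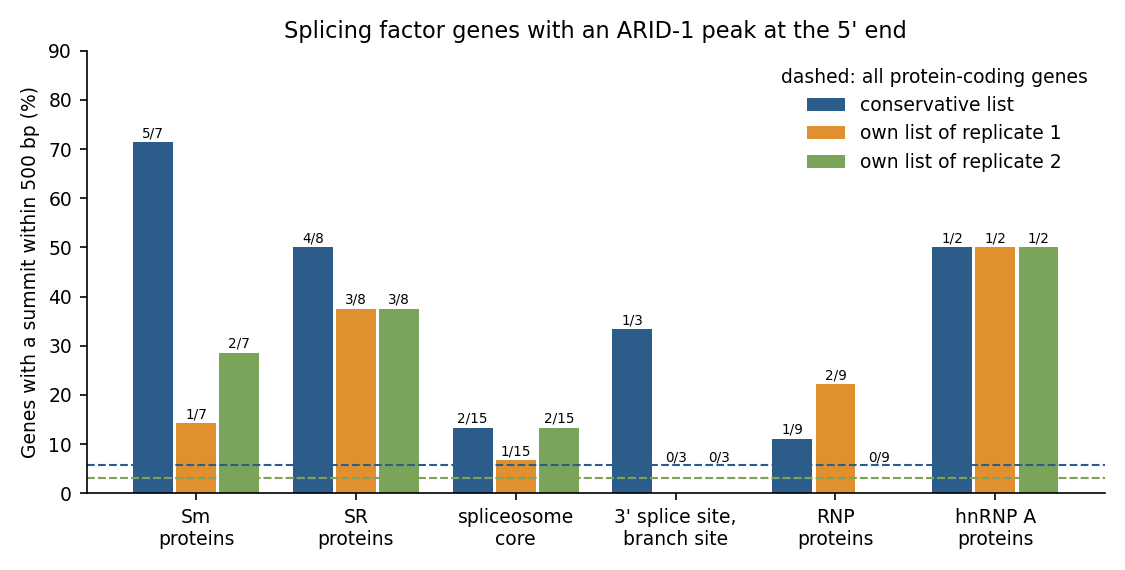
Share of each class of splicing factor genes (percent, bars from 0) with a summit within 500 bp of the 5' end, in the conservative list and in the thresholded list of each replicate, with the number of genes above each bar; dashed lines give the share of all protein-coding genes in the same lists (5.68%, 3.02% and 3.04%). The Sm bar drops from 5 of 7 in the conservative list to 1 and 2 of 7 in the replicates' own lists, while the SR bars stay at 3 or 4 of 8. The SR genes rsp-1 and rsp-2 share 1 conservative peak.

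Sequences are shown for 5 peaks, because 1 lies against an snRNA gene, 3 hold the 7-base word GCGTCGC, and 1 shared by an Sm and an SR gene gives the contrast without that word. All are from the WBcel235 assembly (ce11), plus strand, 5' to 3', with bases inside protein-coding genes left off. In the first, the peak upstream of snr-4 at chrV:11980037-11980143, capitals mark bases of an snRNA gene; in the others they mark GCGTCGC or its reverse complement GCGACGC. The remaining peaks are those between rsp-1 and rsp-2 (chrII:11453107-11453361), upstream of rsp-6 (chrIV:7791276-7791545), upstream of hrpa-1 (chrIV:3338868-3339036) and between rsp-5 and snr-3 (chrII:6489851-6490120).
snr-4: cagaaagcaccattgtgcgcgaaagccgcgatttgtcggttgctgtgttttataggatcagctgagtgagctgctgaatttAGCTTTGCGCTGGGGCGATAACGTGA
rsp-1 and rsp-2: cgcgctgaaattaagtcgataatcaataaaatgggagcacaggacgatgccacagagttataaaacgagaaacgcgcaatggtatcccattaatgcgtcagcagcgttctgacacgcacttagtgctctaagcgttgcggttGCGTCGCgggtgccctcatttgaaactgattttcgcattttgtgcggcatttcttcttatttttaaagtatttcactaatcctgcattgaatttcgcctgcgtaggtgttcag
rsp-6: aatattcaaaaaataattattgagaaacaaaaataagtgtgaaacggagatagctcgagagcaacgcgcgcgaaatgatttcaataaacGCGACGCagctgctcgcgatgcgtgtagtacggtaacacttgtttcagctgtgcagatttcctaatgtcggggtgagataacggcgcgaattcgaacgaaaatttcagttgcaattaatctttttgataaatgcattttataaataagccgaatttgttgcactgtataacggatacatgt
hrpa-1: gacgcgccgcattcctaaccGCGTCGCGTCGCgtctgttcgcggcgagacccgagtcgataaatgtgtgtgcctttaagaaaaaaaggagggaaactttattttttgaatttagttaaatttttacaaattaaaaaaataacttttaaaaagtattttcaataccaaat
rsp-5 and snr-3: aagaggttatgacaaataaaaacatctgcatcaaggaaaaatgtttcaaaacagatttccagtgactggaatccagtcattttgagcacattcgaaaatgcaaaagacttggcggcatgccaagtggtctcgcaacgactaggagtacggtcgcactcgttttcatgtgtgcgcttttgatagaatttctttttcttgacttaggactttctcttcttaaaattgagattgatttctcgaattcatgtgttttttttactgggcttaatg
The word was searched after these sequences had been seen, so its counts are a description. Within 201 bp centred on the summit, GCGTCGC on either strand was present at 4 of the 14 peaks of splicing factor genes (28.6%), the fourth being the peak upstream of snr-1. It was present at 48 of all 944 promoter peaks (5.09%), that is peaks with a summit within 500 bp of any protein-coding 5' end. In windows of the same length centred 1000 bp to either side it was present in 22 of 1888 for all promoter peaks (1.17%) and in 0 of 28 for the splicing factor genes. In the stretch from 250 bp before to 50 bp after the 5' end, 4 of the 14 genes with a summit (hrpa-1, rsp-6, and rsp-1 and rsp-2, each at a match of its own), 1 of the 30 without (rsp-3), and 1.25% of all 19973 genes held it.

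Among the Sm genes, the strongest peak was that of snr-4, which encodes the SmD2 protein. Its signal, the authors' own enrichment value per peak, was 75.8 in replicate 1 and 74.6 in replicate 2, a mean of 75.2 ± 0.841 (SD, n = 2, as for all means below). The replicates were almost equal there, and the peak ranked 102nd of the promoter peaks by mean signal, first among those of splicing factor genes. Its summit lay 355 bp upstream of snr-4 and 40 bp before the start of an snRNA gene, WBGene00014291 (C52E4.8 in RefSeq), at chrV:11980118-11980261 on the plus strand. The annotation also places the summit in an exon of the non-coding RNA gene C52E4.14 (WBGene00196956). The snRNA gene is 144 bp long, and 26 bases of the peak, the capitals printed above, lie inside it. The peak is 107 bp wide where the median promoter peak is 270 bp. The annotation has 3 more genes on chromosome V with 143 or 144 of these 144 bases, so a read from inside the snRNA gene can match more than 1 place. The 81 bases of the peak before the gene match the same stretch before those copies at only 34 to 36 positions. No peak of the conservative list was found within 250 bp of the other copies. Of the 14 peaks of splicing factor genes 1 overlapped an snRNA gene (7.14%), beside 8 of 944 promoter peaks (0.848%). A part of the snRNA gene in the call at snr-4 was not tested.

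The Sm gene snr-1 (SmD3) differed more between replicates. Its signal was 35.5 in replicate 1 and 59.1 in replicate 2, a mean of 47.3 ± 16.7, and the peak was in the thresholded list of replicate 2 alone. This was the largest replicate ratio in favour of replicate 2 among the 14 peaks, 0.74 on the log2 scale. The summit lay 373 bp upstream of snr-1 and 238 bp upstream of snx-13, a sorting nexin gene that runs the other way, so the peak was nearer to the neighbour. The gene snr-3 (SmD1) shared its peak with the SR gene rsp-5, the pair whose sequence is printed above without capitals. Signal was 36.8 in replicate 1 and 37.8 in replicate 2, a mean of 37.3 ± 0.722. The 5' ends of snr-3 and rsp-5 lie back to back 403 bp apart, and the summit was 225 bp from the first and 179 bp from the second. The peak was in neither replicate's own thresholded list.

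The peak at snr-6, which encodes SmE, lay at the other end of the gene. Signal was 38.7 in replicate 1 and 36.1 in replicate 2, a mean of 37.4 ± 1.87. The gene is only 458 bp long, and the summit, 486 bp downstream of its 5' end, fell 29 bp beyond its 3' end. There it lay in the 3' untranslated region of pie-1, a germline gene on the opposite strand that encodes a zinc finger protein. The count of 5 Sm genes therefore includes 1 whose summit was not upstream of the gene. The last Sm gene with a summit, snr-2 (SmB), had a signal of 29.7 in replicate 1 and 38.2 in replicate 2, a mean of 34.0 ± 5.98. Its summit lay 349 bp upstream of snr-2 and only 117 bp upstream of the divergent gene W08E3.4, and the peak was in neither replicate's own list. For the Sm genes as a class, the 5 summits lay 225 to 486 bp from the 5' ends.

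Neither of the Sm genes without a summit, snr-5 (SmF) and snr-7 (SmG), came near the threshold. The ranked list of the series gives each peak the −log10 of its irreproducible discovery rate (IDR), which is higher when a peak holds its rank in both peak sets compared, and every conservative peak was at 2 or above. The best ranked peak within 500 bp was at 0.221 for snr-5 and 0.0775 for snr-7. The value 0.0775 was the lowest at any splicing factor gene with a ranked peak. Several genes shared it, rsp-7 and prp-19 among them. The nearest conservative summits were 7372 bp from snr-5 and 37431 bp from snr-7.

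Among the SR genes, rsp-1 and rsp-2 shared 1 peak in the 406 bp between their divergent 5' ends, the one printed above with a single GCGTCGC. Signal was 91.6 in replicate 1 and 58.1 in replicate 2, a mean of 74.9 ± 23.7. This was the widest spread between replicates of the 14 peaks, and the lowest log2 ratio of replicate 2 to replicate 1, −0.66. The peak was in the thresholded lists of both replicates, ranked next after that of snr-4, and its summit was 120 bp upstream of rsp-1 and 287 bp upstream of rsp-2. The gene rsp-6 had a peak of its own with signals of 50.2 in replicate 1 and 47.8 in replicate 2, a mean of 49 ± 1.68. Both replicates also listed this peak, and its summit was 182 bp upstream of rsp-6 with no other protein-coding 5' end in the window. The 4 SR genes with a summit thus rested on 3 peaks, 1 of them shared inside the class and 1 shared with snr-3.

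The other SR genes were rsp-3, rsp-4, rsp-7 and rsp-8. The best ranked peak was at a −log10 IDR of 1.16 for rsp-3, the counterpart of mammalian SRSF1, and 1.13 for rsp-8. It was at 0.179 for rsp-4, the counterpart of mammalian SRSF2, and 0.0775 for rsp-7. A conservative summit 570 bp upstream of rsp-8 lay just outside the window, with a signal of 71.5 in the conservative list, whose values run higher than those of the replicates' lists. A window of 500 bp therefore decides the call at rsp-8.

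Of the spliceosome core, prp-8 and prp-40 held a summit. The gene prp-8 encodes the large scaffold protein of the U5 particle at the heart of the spliceosome, and had summits on both sides of its 5' end. The upstream peak, with its summit 336 bp before the 5' end, had signals of 46.5 in replicate 1 and 63.8 in replicate 2, a mean of 55.1 ± 12.2, and both replicates listed it. The second peak, with its summit 378 bp downstream in a coding exon, had 24.9 in replicate 1 and 30.3 in replicate 2, a mean of 27.6 ± 3.78. The downstream peak had the lowest mean of the 14 peaks, and neither replicate listed it. The gene prp-40, whose yeast and human counterparts belong to the U1 particle, had signals of 35.7 in replicate 1 and 51.1 in replicate 2, a mean of 43.4 ± 11.0. The summit lay 183 bp upstream of prp-40 and 432 bp upstream of the divergent gene clu-1, and replicate 2 alone listed the peak.

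The remaining 3 genes with a summit encode proteins that bind pre-messenger RNA. The gene hrpa-1, which encodes an hnRNP A protein, had a peak 35 bp upstream of its 5' end with signals of 48.3 in replicate 1 and 43.3 in replicate 2, a mean of 45.8 ± 3.59. Both replicates listed this peak, the one printed above with overlapping capitals. A second peak, 454 bp downstream within the annotated 5' untranslated region of hrpa-1, had 27.02 in replicate 1 and 37.7 in replicate 2, a mean of 32.4 ± 7.57, and neither replicate listed it. The gene rnp-6, the counterpart of the human splicing factor PUF60, had signals of 39.8 in replicate 1 and 27.1 in replicate 2, a mean of 33.4 ± 8.97. Its summit lay 128 bp upstream of rnp-6 but 33 bp upstream of rde-10, a divergent gene of the RNA interference pathway, and replicate 1 alone listed the peak. The gene uaf-1 encodes the large subunit of U2AF, which binds the polypyrimidine tract before the 3' splice site. Its signal was 23.6 in replicate 1 and 31.9 in replicate 2, a mean of 27.7 ± 5.92, with the summit 41 bp upstream. At a −log10 IDR of 2.05 the uaf-1 peak was the closest of the 14 to the threshold of 2, and uaf-1 was the 1 gene absent when the other thresholded list of the series was used.

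**Figure D2:**
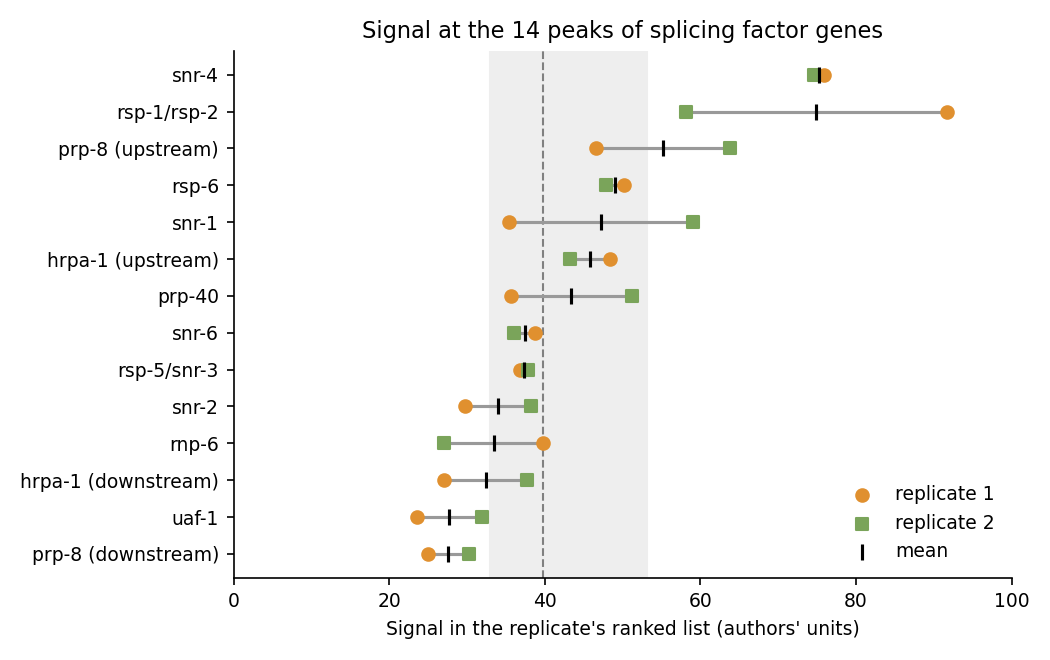
Signal (the authors' units) of replicate 1 (circles) and replicate 2 (squares) with their mean (bar) at each of the 14 peaks of splicing factor genes; the dashed line and grey band give the median and quartiles of the mean over all promoter peaks. Means run from 27.6 at the downstream peak of prp-8 to 75.2 at snr-4, and the widest gap between replicates is at rsp-1 and rsp-2.

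The peaks of splicing factor genes had a median and quartiles of signal near those of all promoter peaks, and none was among the very strongest. Their median mean signal was 40.4 beside 39.7 over all promoter peaks, with quartiles of 33.6 and 48.6 beside 32.9 and 53.1. The highest reached 75.2, while the highest of all promoter peaks was 444.4. The median log2 ratio of replicate 2 over replicate 1 was 0.16 (SD 0.41, 14 peaks), beside 0.11 (SD 0.43) over the 928 promoter peaks with a value in both replicates. Replicate 2 was the higher at 8 of the 14 (57.1%), beside 60.8% of those 928 promoter peaks. Of the 14 peaks, 5 (35.7%) overlapped a peak in both replicates' thresholded lists and 6 (42.9%) a peak in neither, beside 33.6% and 38.0% of all promoter peaks. Median GC content in the 201 bp around the summit was 43.0% for these peaks and 43.3% for all promoter peaks.

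Several of the peaks stood between genes that start close together. At 6 of the 14 (42.9%) the window held the 5' end of more than 1 protein-coding gene, beside 224 of 944 promoter peaks (23.7%). The 6 are those of rsp-1 with rsp-2, rsp-5 with snr-3, snr-1 with snx-13, snr-2 with W08E3.4, prp-40 with clu-1 and rnp-6 with rde-10. With a window of 250 bp the number was 2, and the share of all promoter peaks at that window is not given here. At 3 peaks the 5' end of another gene lay inside the interval itself, namely W08E3.4 at snr-2, rde-10 at rnp-6, and rsp-1 at the peak it shares with rsp-2. That count too has no share of all promoter peaks beside it, so both are a description only. Of the 16 pairs of a splicing factor gene and a summit, 13 had the summit upstream, at a median position of −180.5 bp. Counted by peak and measured to the nearest 5' end of any protein-coding gene, 11 of the 14 summits lay upstream (78.6%), beside 77.3% of all promoter peaks, a share close to the background. The median positions were −118.5 bp and −149 bp.

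**Figure D3:**
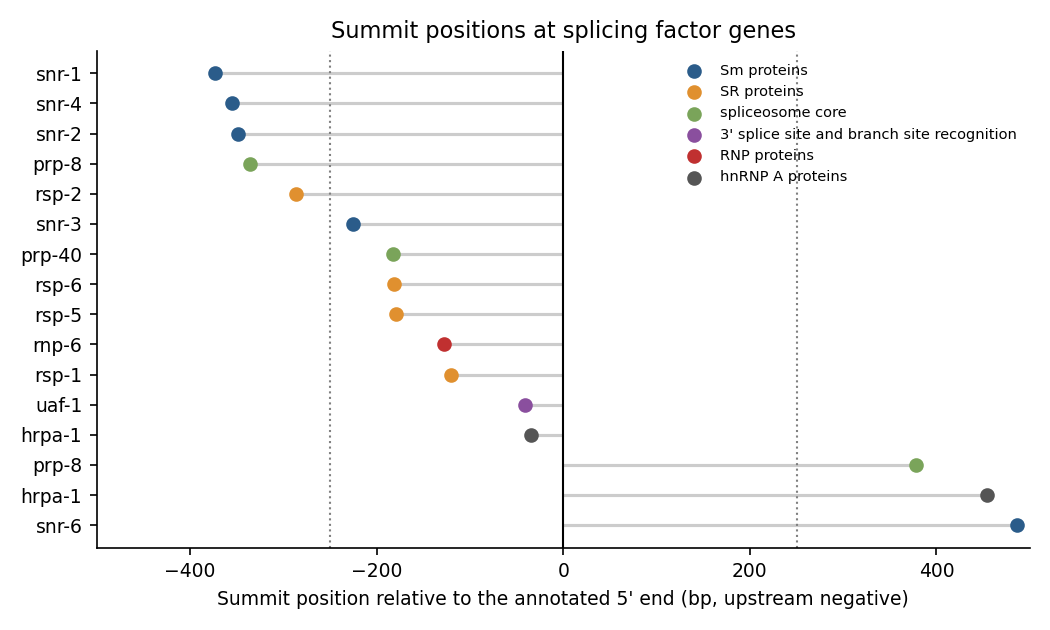
Position of each summit relative to the annotated 5' end of the splicing factor gene it was assigned to (bp, upstream negative), coloured by class, with dotted lines at 250 bp to either side. Of the 16 points 13 lie upstream, and the 3 downstream belong to prp-8, hrpa-1 and snr-6.

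Some worm genes are transcribed in operons from the promoter of a gene upstream, and others are paired head to head. The genes were therefore sorted by their nearest upstream protein-coding neighbour, a description added after the data had been seen. Of 24 splicing factor genes with a divergent neighbour starting within 1000 bp, 10 held a summit (41.7%), beside 13.5% of 3503 such genes in the genome. Of 9 with no gene that near, 2 held one (22.2%), beside 3.31% of 10771. Of 11 with a gene on the same strand ending within 1000 bp upstream, 2 held one (18.2%), beside 5.36% of 5694. Each of these shares was above that of all genes with a like neighbour. The 10 with a divergent neighbour include rsp-1 with rsp-2 and rsp-5 with snr-3, each pair on 1 shared peak. They also include snr-6, whose summit lay beyond its 3' end. In 4 of the 11 with a neighbour on the same strand (36.4%) a summit was at the upstream gene, beside 445 of those 5694 (7.82%). They are smrd-1 before prp-3, plrg-1 before prp-38, hmgs-1 before prp-39 and syf-2 before rnp-7. The gaps there were 344, 106, 90 and 4 bp, and 2 of these neighbours, plrg-1 and syf-2, are spliceosome genes themselves.

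Of the 30 splicing factor genes without a summit, 29 (96.7%) had some peak of the full ranked list within 500 bp, beside 53.2% of the 18839 genes without a summit. The exception was rnp-7, which encodes the U1-70K protein. Over all genes, with or without a summit, the same held for 43 of 44 splicing factor genes and 55.8% of the genome, so the full list, with 77384 peaks, reaches most genes. Genes with no ranked peak have no value, so the medians of the best −log10 IDR cover only the rest, and were 0.279 over 29 splicing factor genes and 0.221 over 10013 of the 18839 genes. It was at least 1 in 8 of 30 (26.7%), beside 853 of 18839 (4.53%).

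The highest of these was prp-39, a U1-associated factor, at a −log10 IDR of 1.93. Its signal was 23.8 in replicate 1 and 28.3 in replicate 2, a mean of 26.0 ± 3.16, with the ranked summit 76 bp downstream of the 5' end. That mean was within 2 units of uaf-1 and of the downstream peak of prp-8, which passed. The other hnRNP A gene, hrpa-2, was at 1.76 with signals of 22.7 in replicate 1 and 26.8 in replicate 2, a mean of 24.8 ± 2.92. The U2 particle gene sftb-1, the counterpart of SF3B1, was at 1.60 with 19.5 in replicate 1 and 39.8 in replicate 2, a mean of 29.6 ± 14.3. Its mean was above that of 2 peaks that passed. Why the sftb-1 peak did not pass was not tested. The gene repo-1, which encodes the SF3A2 protein of the U2 particle, was at 1.57 with 24.2 in replicate 1 and 22.9 in replicate 2, a mean of 23.5 ± 0.908. The gene rnp-1, of the RNA recognition motif family, was at 1.20 with 20.3 in replicate 1 and 21.3 in replicate 2, a mean of 20.8 ± 0.717. Among all splicing factor genes, rnp-1 was the 1 gene without a conservative summit that held one in a replicate's own thresholded list, that of replicate 1. The small U2AF subunit gene uaf-2 was at 1.05, and sfa-1, for the branch point binding protein, at 0.198. In 6 of the 8 genes at 1 or above the ranked summit lay downstream of the 5' end. The same count was not made over all 853 genes without a summit at 1 or above. It is therefore a description of these 8 only.

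The spliceosome core, with 15 of the 44 genes the largest class of the set, was also the largest among those without a summit, 13 of 30. They ranged from a −log10 IDR of 0.0775 to 1.93 with a median of 0.348. They include prp-3, prp-4 and prp-31 of the U4/U6 particle, prp-6 of the tri-snRNP, prp-9 and prp-21 of the U2 particle, prp-17 and prp-18 of the second catalytic step, and prp-19 of the ubiquitin ligase complex. At prp-19 a conservative summit with a list signal of 146.5 lay 631 bp upstream, outside the window. The divergent neighbour of prp-19, K10D2.5, lies across a gap of 674 bp and itself held a summit. The 8 rnp genes without a summit ranged up to 1.20, and those with a value had a median of 0.227. They include rnp-2 and rnp-3, which encode RNA-binding proteins of the U1 and U2 particles, and rnp-4, for the Y14 protein of the exon junction complex. Across all 30 genes the nearest summit was 570 to 106143 bp away, at a median of 8771 bp. For 2 of them, rsp-8 and prp-19, it was within 1000 bp. The same distances were not taken over all genes. Just inside the window were snr-6 at 486 bp, hrpa-1 with its second peak at 454 bp, prp-8 with its second at 378 bp and snr-1 at 373 bp.

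**Figure D4:**
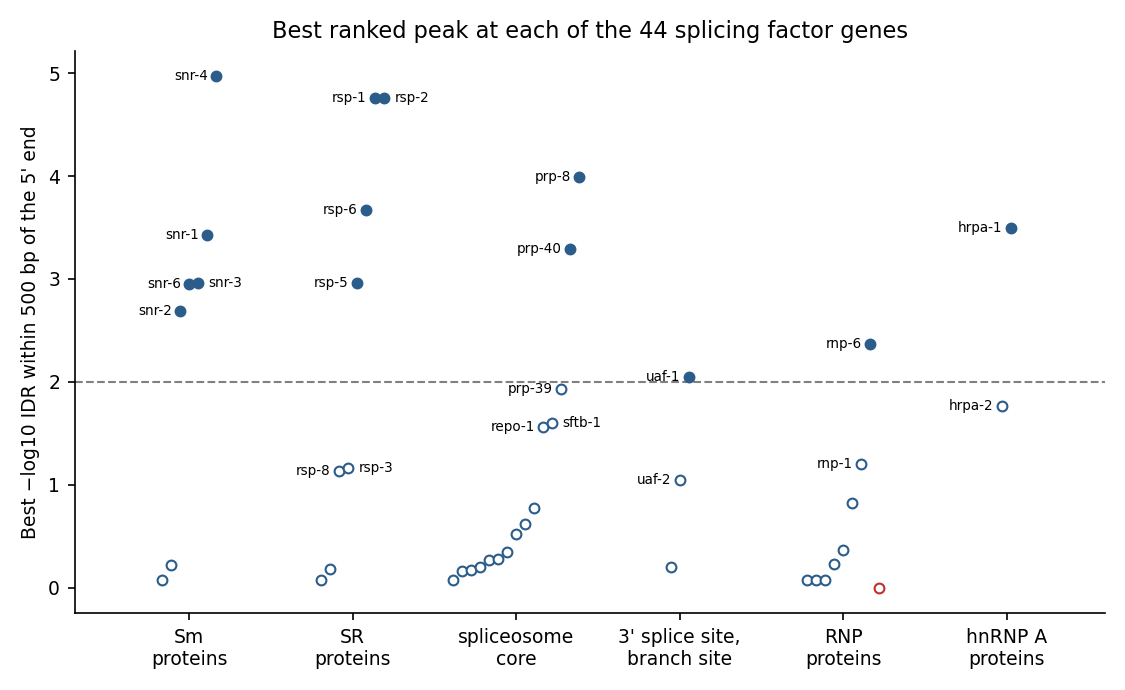
Best −log10 IDR of any ranked peak within 500 bp of the 5' end for each of the 44 splicing factor genes, by class; filled points held a summit of the conservative list, the dashed line is the threshold of 2, and the red point at 0 is rnp-7, which had no ranked peak. The Sm genes fall into 5 at 2.69 or above and 2 at 0.221 or below, while 4 genes of the core and hnRNP A classes lie between 1.57 and 2.

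How many genes held a summit depended on the peak list and the window. In the thresholded list of replicate 1 it was 8 genes, 7 of the 14 and rnp-1, beside 3.02% of all genes. In that of replicate 2 it was 8 of the 14, beside 3.04%. Both lists held 6 of them, hrpa-1, prp-8, rsp-1, rsp-2, rsp-6 and snr-4. With a window of 250 bp it was 8 genes, beside 3.52%. With peaks at or above the median signal of the conservative list it was 10, beside 3.08%. With each summit given to the nearest 5' end alone it was 9, beside 4.59%. The other thresholded list of the series gave 13, beside 5.45%, and leaving out peaks over tRNA, snoRNA or snRNA genes gave 13, beside 5.26%, with snr-4 the gene lost. The order of the classes was not the same throughout. The SR genes held 3 or 4 of 8 in each of these settings. In the list of either replicate the 3 were rsp-1, rsp-2 and rsp-6, and rsp-1 and rsp-2 share 1 conservative peak. The Sm genes held 1 of 7 within 250 bp, 1 and 2 of 7 in the lists of replicates 1 and 2, and 2 of 7 when each summit went to the nearest 5' end.

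A further list of 82 splicing genes outside the rule was read in the same way. Of these, 78 were in the annotation by symbol and 20 held a summit (25.6%), beside the same 5.68% of all genes. By group it was 2 of 7 LSm genes, 9 of 41 other snRNP and spliceosome genes, 8 of 21 regulators, 0 of 6 exon junction and cap binding genes and 1 of 3 genes for snRNP assembly. Their mean signal ran from 27.3 to 138.5 with a median of 39.9, so the peaks of the 44 genes are not the strongest at splicing genes. The strongest was at mog-4, a DEAH-box helicase gene known from germline sex determination, with 147.0 in replicate 1 and 129.9 in replicate 2, a mean of 138.5 ± 12.1. Next came plrg-1 with 70.8 in replicate 1 and 82.3 in replicate 2, a mean of 76.5 ± 8.12. The hnRNP K gene hrpk-1 had 74.9 in replicate 1 and 67.7 in replicate 2, a mean of 71.3 ± 5.11. The means at mog-4 and plrg-1 were above that of snr-4, the strongest of the 44, and that at hrpk-1 was below it. The SR protein kinase gene spk-1 had a mean of 66.3 ± 5.30, at a peak shared with rheb-1. The gene prmt-5, for the methyltransferase that modifies Sm proteins, had a mean of 63.2 ± 0.408. The spliceosome gene smu-1 had a mean of 62.2 ± 8.56, and rbm-39, listed among the regulators, 59.9 ± 1.61. The spliceosome gene syf-2 had a mean of 59.3 ± 1.11, at a peak shared with K04G7.1.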

How the data were processed

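Whole-worm ARID-1 ChIP-seq of 2 replicates was read from the 7 deposited peak lists used here, of 8 in all. Per the file notes, the lists are on ce11; per the labels, chromatin was sonicated. Neither the aligner nor the peak caller is named (not given in the sources used here). Signal and the distance in bp from peak start to summit are the authors' values for each peak, as deposited. For ranked peaks the authors also deposited the −log10 of the IDR; the conservative list holds peaks at an IDR of 0.01 or below. The scaling between lists is not given, so a replicate SD can include a difference of scale. The lists hold no read counts, so depth is unknown and no interval or floor was computed.

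At each conservative peak, a replicate's signal is that of the overlapping peak with the nearest summit in its ranked list. Gene starts came from Ensembl release 115 (WBcel235), sequences and 1 alias from RefSeq. Python 3.11.15, numpy 2.4.6 and pandas 2.3.3 were used, and the counting was tested on simulated data. Members, gene lists and settings were chosen with earlier results of these data known, and the word GCGTCGC and the sorting by neighbour after the data had been seen. Named are all members with a summit, the 5 without one that rank highest by −log10 IDR, neighbours and snRNA genes at those peaks, and the 8 further splicing genes of highest mean signal. Other members named were chosen after their values were seen. No p-values are given.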

Additional observations from a re-analysis of the deposited data

How the results depend on the processing

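The number of splicing factor genes with a summit, 14, was 8 with a 250 bp window, 9 with each summit given to its nearest 5' end, and 8 in either replicate's own list. For the Sm genes, 5 became 1 with the 250 bp window, 3 with peaks at or above the median signal, 2 with the nearest 5' end, and 1 to 2 in the replicates' own lists. For the spliceosome core, 2 became 1 with the 250 bp window and 1 to 2 in the replicates' own lists. For the further splicing genes, 20 became 12 at or above the median signal and 9 to 16 in the replicates' own lists. As shares these were 25.6%, 15.4%, and 11.5% and 20.5% for replicates 1 and 2. Fewer of all genes held a summit in these settings too. The 5.68% of the main setting was 3.52% with the 250 bp window and 4.59% with the nearest 5' end. It was 3.08% at or above the median signal, and 3.02% and 3.04% in the lists of replicates 1 and 2. The count of peaks with another 5' end in the window, 6, was 2 at 250 bp and 3 when that end had to lie inside the peak. The shares of all promoter peaks at those settings are not given here. The median signal was 40.4 from the replicates' lists, 37.75 to 40.72 for either replicate, and 79.94 from the conservative list, whose values run higher. The SR count was 3 or 4 in every setting, but rsp-1 and rsp-2 share 1 conservative peak. The windows and stricter lists leave fewer summits by construction; for the other changes the cause was not tested. No paired analysis was possible because there is 1 group. With 2 replicates an SD is a rough measure of spread. The lists give no depth, so absence of a summit is not absence of binding.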

Other observations

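For 3 splicing factor genes without a summit at the 5' end, the conservative list had a summit inside the gene, beyond the window. They were sfa-1, with a gene of 7158 bp and a summit 2489 bp downstream of the 5' end, rsp-3, with 1741 bp and a summit 1332 bp downstream, and rsp-8, with 4557 bp. The list signals of the first and second of these summits were 62.3 and 57.7, below the median of the conservative list, 76.0. Summits inside genes were not counted over all genes, so the count of 3 is a description only.

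Other words were searched on both strands in the 201 bp around the summit. The word TTTCAG was present at 4 of the 14 peaks of splicing factor genes (28.6%) and at 22.5% of the 944 promoter peaks. The word GAGAGA was present at 2 of the 14 (14.3%) and at 28.9% of promoter peaks. The word AATATT was present at 1 of the 14 (7.14%) and at 15.5% of promoter peaks. The E-box CACGTG was present at 0 of the 14 and 5.19% of promoter peaks, and the longer word TTCCCGCC at 0 of the 14 and 1.27% of promoter peaks. In windows centred 1000 bp to either side of all promoter peaks, TTTCAG was in 38.0% of 1888, GAGAGA in 12.3% and AATATT in 20.0%. There CACGTG was in 3.87% and TTCCCGCC in 0.530%. For the splicing factor genes, TTTCAG was in 42.9% of 28 such windows, GAGAGA in 7.14% and AATATT in 10.7%. CACGTG and TTCCCGCC were in 0 of the 28. In the stretch from 250 bp before to 50 bp after the 5' end, TTTCAG was found in 8 of the 14 genes with a summit, 22 of the 30 without and 51.7% of all 19973 genes. There GAGAGA was found in 4 of the 14, in 5 of the 30 and in 21.8% of all genes. No test was made of these shares.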
